A study of Homo sapiens with 5 samples.

Results

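The genes described here encode 7 enzymes that set or relay the signal which controls FOXO factors: the kinases AKT1 and AKT2, the kinases GSK3A and GSK3B, the catalytic subunit of protein phosphatase 2A (PPP2CA), and the AKT phosphatases PHLPP1 and PHLPP2. They were chosen by name for these roles, and they are 7 of the 19866 protein-coding genes of the annotation. The assay was CUT&Tag for FOXO3A: an antibody tethers a transposase at chromatin that holds the factor, and the enzyme cuts and tags the DNA beside it. The libraries came from U-937 (2 libraries) and THP-1 (3 libraries), established human lines with monocytic features that the labels class as acute myeloid leukemia cells. All 5 libraries used the same FOXO3A antibody, and the labels name no treatment or genetic change in either line.

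AKT is activated downstream of growth factor receptors by phosphoinositide 3-kinase. It phosphorylates FOXO factors, which then bind adaptor proteins and leave the nucleus. AKT also phosphorylates and inhibits both GSK3 kinases, which otherwise act on glycogen synthase and on beta-catenin. The phosphatases work against this: PHLPP enzymes and protein phosphatase 2A remove activating phosphates from AKT, and protein phosphatase 2A can also act on FOXO factors themselves. A peak of FOXO3A at one of these genes is a measurement of occupancy only, since no RNA or protein was measured here.

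Peaks were present in 1 library of each line. U-937 replicate 1 had 2272 peaks and THP-1 replicate 1 had 1037 on chromosomes, while U-937 replicate 2 and THP-1 replicates 2 and 3 had 0 each. Read depth is unknown, no value below has a replicate check, and nothing was tested. Contigs outside the chromosomes held 0 peaks in U-937 and a further 245 in THP-1, and how either list was made is not given in the labels, so fold enrichment, the authors' ratio over an unstated background, is read by its rank within its own list. A gene was counted as carrying a boundary peak when a summit, the highest point of a peak, lay within 1000 bp of either end of its annotated span.

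In U-937 a peak lay at the start of 5 of the 7 genes, AKT2, GSK3B, GSK3A, PPP2CA and PHLPP1, and none lay at AKT1 or PHLPP2. In that list 7.02% of all protein-coding genes had a peak at either end, and 7.25% of the 15842 of known strand had one at the start. In THP-1 a peak lay near 1 of the 7, GSK3B, against 0.221% of all protein-coding genes. At GSK3B, in both lines, the summit was nearer to the start of an lncRNA gene read in the opposite direction. The same held for PPP2CA in U-937. The 7 genes were chosen with earlier results for several of them known, so these counts describe the genes and do not measure an excess. The backgrounds of the lines differ in the same direction as the counts of the 7 genes, and the difference between lines was not tested.

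**Figure D1:**
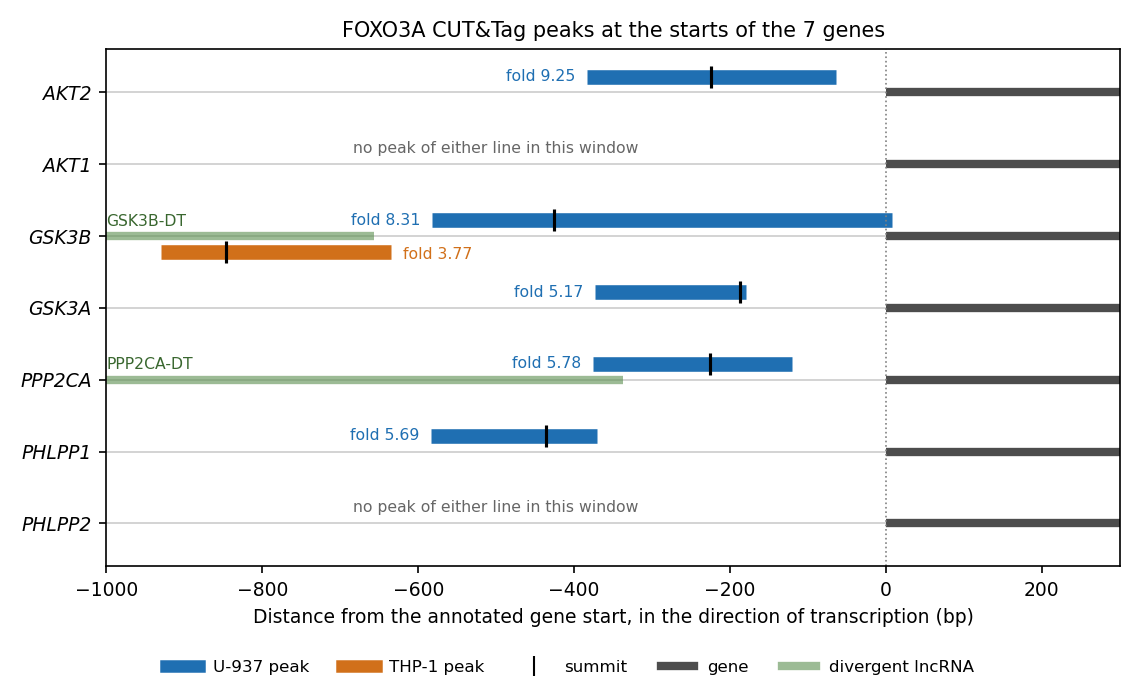
Peaks within 1000 bp of the starts of the 7 genes, drawn to scale from each gene's annotated start in the direction of transcription (bp); bars are peaks, ticks are summits, and numbers are the authors' fold enrichment. All 5 U-937 summits lie before the start, at 187 to 436 bp, and the THP-1 peak near GSK3B lies beyond the U-937 peak, at the divergent lncRNA gene GSK3B-DT.

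AKT2 and AKT1, and the pair GSK3A and GSK3B, encode closely related kinases whose starts differed in the presence or strength of a peak. Sequences of windows at these starts and at those of PPP2CA and GSK3B-DT are therefore given first. Apart from that of AKT1, which holds none, they hold parts of these peaks. They are RefSeq sequences of GRCh38.p14, written in the direction of transcription and ending at the base before the annotated start, except that of GSK3B-DT, which runs on into its lncRNA gene. Capitals mark the bases inside the U-937 peak. The windows are chr19:40285346-40285595 on the minus strand for AKT2, chr14:104795749-104795998 on the minus strand for AKT1, chr19:42242603-42242852 on the minus strand for GSK3A, chr3:120094448-120094697 on the minus strand for GSK3B, chr3:120094854-120095153 on the plus strand for GSK3B-DT and chr5:134226074-134226323 on the minus strand for PPP2CA.
AKT2: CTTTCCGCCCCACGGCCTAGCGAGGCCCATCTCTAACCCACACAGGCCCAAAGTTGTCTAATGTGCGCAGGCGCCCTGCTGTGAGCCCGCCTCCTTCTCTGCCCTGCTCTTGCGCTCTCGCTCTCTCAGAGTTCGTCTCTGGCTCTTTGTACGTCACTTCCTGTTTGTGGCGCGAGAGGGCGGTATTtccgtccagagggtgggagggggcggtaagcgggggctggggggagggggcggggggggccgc
AKT1: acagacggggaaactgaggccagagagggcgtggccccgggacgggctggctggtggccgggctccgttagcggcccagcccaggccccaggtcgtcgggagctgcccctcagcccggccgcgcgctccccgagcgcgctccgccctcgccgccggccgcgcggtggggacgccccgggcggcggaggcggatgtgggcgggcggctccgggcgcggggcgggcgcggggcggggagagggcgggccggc
GSK3A: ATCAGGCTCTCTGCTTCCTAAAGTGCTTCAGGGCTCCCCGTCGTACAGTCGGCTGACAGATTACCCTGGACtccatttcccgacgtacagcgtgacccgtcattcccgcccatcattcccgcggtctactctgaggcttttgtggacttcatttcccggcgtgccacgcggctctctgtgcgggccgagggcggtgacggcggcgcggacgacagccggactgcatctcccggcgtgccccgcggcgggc
GSK3B: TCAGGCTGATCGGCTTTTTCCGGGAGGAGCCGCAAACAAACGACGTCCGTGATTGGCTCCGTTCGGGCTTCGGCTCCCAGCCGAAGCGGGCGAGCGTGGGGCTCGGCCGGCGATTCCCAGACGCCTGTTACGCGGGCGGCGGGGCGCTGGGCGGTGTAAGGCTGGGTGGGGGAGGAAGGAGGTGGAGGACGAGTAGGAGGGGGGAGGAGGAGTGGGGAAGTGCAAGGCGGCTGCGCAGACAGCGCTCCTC
GSK3B-DT: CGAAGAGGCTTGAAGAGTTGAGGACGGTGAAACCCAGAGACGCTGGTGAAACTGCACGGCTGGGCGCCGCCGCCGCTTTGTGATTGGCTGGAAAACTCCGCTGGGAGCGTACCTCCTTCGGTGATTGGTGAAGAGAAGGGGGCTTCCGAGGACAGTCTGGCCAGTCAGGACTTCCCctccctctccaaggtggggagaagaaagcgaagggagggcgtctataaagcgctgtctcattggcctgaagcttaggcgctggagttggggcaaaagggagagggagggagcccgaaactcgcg
PPP2CA: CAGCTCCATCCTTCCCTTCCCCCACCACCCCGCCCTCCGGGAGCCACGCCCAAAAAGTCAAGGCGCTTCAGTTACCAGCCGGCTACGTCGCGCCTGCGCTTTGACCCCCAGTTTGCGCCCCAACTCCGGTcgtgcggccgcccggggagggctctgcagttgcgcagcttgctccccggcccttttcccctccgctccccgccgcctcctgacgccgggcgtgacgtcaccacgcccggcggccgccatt
The peak covered all 250 bases shown for GSK3B, 187 of the 250 for AKT2, 130 of the 250 for PPP2CA and 71 of the 250 for GSK3A. AKT1 had no base inside a peak. In the GSK3B-DT window 176 bases lay in the U-937 peak, and 72 bases at its far end lay in the THP-1 peak. The PHLPP1 peak ended 371 bp before the start, outside the window of the table, and is not shown.

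AKT2, the AKT isoform best known for insulin-stimulated glucose uptake, carried the strongest peak of the 7 genes. The gene lies on chromosome 19 at 40230317 to 40285345 on the minus strand. The U-937 peak at 40285409 to 40285729 had a fold enrichment of 9.25 and a -log10 q of 9.95, ranks 231 and 260 of 2272. Its summit was 225 bp before the start, and the peak stopped 64 bp short of it. No other annotated gene had an end within 1000 bp of that summit. A further U-937 peak of fold 8.25 lay 63.2 kb before the AKT2 start, at C19orf47. In THP-1 the nearest peak was 979 kb away, nearest to HNRNPUL1, with a fold of 4.16 and rank 932 of 1037.

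AKT1, the most widely expressed AKT isoform, had no boundary peak in either line, and both lines had a peak beyond its far end. The gene lies on chromosome 14 at 104769349 to 104795748 on the minus strand. The U-937 peak at 104752692 to 104753139 had a fold of 9.55 and a -log10 q of 11.1, ranks 195 and 185 of 2272. The THP-1 peak at 104752715 to 104753029 had a fold of 4.47 and a -log10 q of 4.12, ranks 883 and 892 of 1037. The THP-1 peak lay wholly within the U-937 peak, with 315 bp in common, and the summits were 138 bp apart. These summits were 16.3 kb past the AKT1 end in U-937 and 16.5 kb in THP-1, but 122 bp from the start of SIVA1 in U-937 and 260 bp in THP-1. SIVA1 encodes an apoptosis regulator and is named here after its values were seen. On the other side, 20.2 kb before the AKT1 start, U-937 had a weak peak of fold 4.72, rank 1812 of 2272. Of all protein-coding genes 13.7% had a U-937 peak at least as near as AKT1 did, and 1.60% had a THP-1 peak at least as near.

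GSK3B was the only 1 of the 7 genes with a boundary peak in both lists, as 0.101% of all protein-coding genes had, and its peaks did not overlap. The gene spans chromosome 3 at 119821321 to 120094447 on the minus strand, a length of 273 kb. The U-937 peak at 120094439 to 120095029 was 591 bp wide, with a fold of 8.31 and a -log10 q of 9.23, ranks 385 and 321 of 2272. It reached 9 bp into the gene, and its summit was 426 bp before the start. The THP-1 peak at 120095082 to 120095377 had a fold of 3.77 and a -log10 q of 1.39, ranks 972 and 1035 of 1037. The lowest -log10 q of the THP-1 list was also 1.39, so that this peak stood among the weakest of its list.

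Both GSK3B peaks also lay at GSK3B-DT, an lncRNA gene that starts 657 bp away and is read in the opposite direction. Such a divergent start within 1000 bp was present at 2 of the 7 genes (28.6%). The share was 17.4% of all protein-coding genes of known strand, and 34.5% of those with a U-937 peak at the start. The U-937 summit was 231 bp before the GSK3B-DT start. The THP-1 summit was 189 bp past that start, and 846 bp from the GSK3B start. The summits of the lines were thus 420 bp apart, with 52 bp between the peaks. Within the GSK3B span itself, neither list had a summit, and the next nearest peak was 358 kb away in U-937 and 26.4 Mb away in THP-1.

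By a rule on rank, the genes most like GSK3B were sought among the 20 protein-coding genes with a boundary peak in both lists, using the fold percentile in each list, over 2 libraries. GSK3B stood at the 83.1 percentile of U-937 peaks and the 6.32 percentile of THP-1 peaks. The nearest were PACS2 (summed difference 14.2 percentile points), STK35 (15.5 points) and SIVA1 (17.0 points). Of these, PACS2 had folds of 9.52 in U-937 and 4.35 in THP-1, and the SIVA1 peaks are those nearest to AKT1. The peaks of both lines overlapped at all 3 of these genes, and did not at 4 of the 20 genes, GSK3B among them. These are counts of genes and not of separate peaks. Some of the 20 had the same peak values as another, such as TIMM13 and LMNB2, or H2BC11 and H2AC11, both without overlap.

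GSK3A carried the weakest U-937 boundary peak of the 7 genes. It lies on chromosome 19 at 42230190 to 42242602 on the minus strand. The peak at 42242782 to 42242975 was 194 bp wide, with a fold of 5.17 and a -log10 q of 3.08, ranks 1603 and 1694 of 2272. Its summit was 187 bp before the start, the closest of the 5. A much stronger U-937 peak lay 26.3 kb before the start, at CIC, a transcriptional repressor gene named after its values were seen. That peak had a fold of 14.4, rank 8 of 2272. The THP-1 peak nearest to GSK3A, with a fold of 4.65 and rank 850 of 1037, lay within the same CIC peak, with 291 bp in common, 26.4 kb from GSK3A. Only 2.23% of protein-coding genes had a THP-1 peak at least as near, although GSK3A itself had none.

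**Figure D2:**
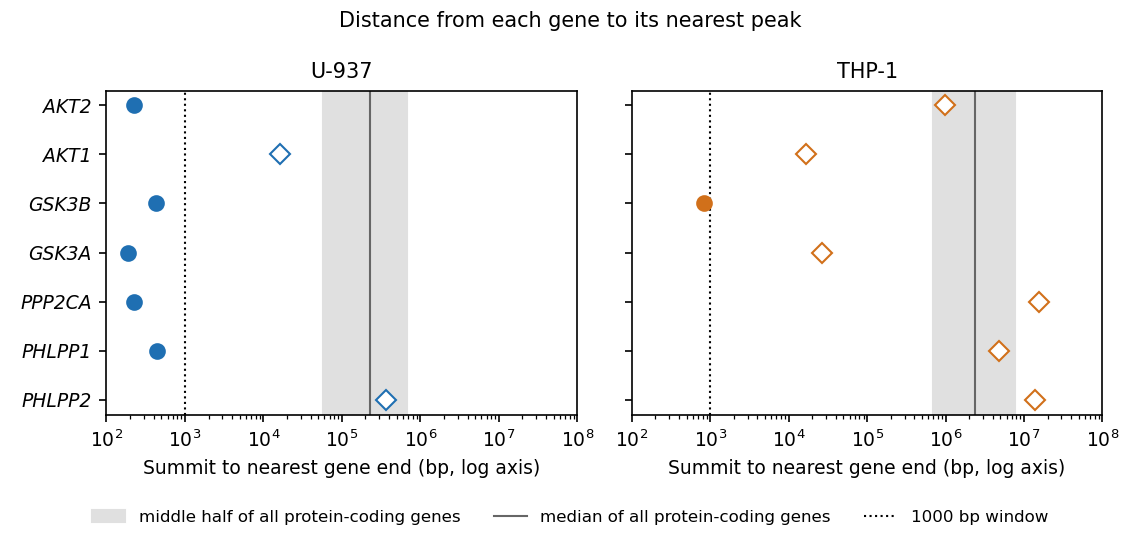
Distance in bp (log axis) from each gene to the summit of its nearest peak in U-937 (left) and THP-1 (right); filled circles are boundary peaks within 1000 bp, open diamonds lie farther away, and the grey band runs from the lower to the upper quartile of all protein-coding genes. In U-937, 5 of the 7 genes lie left of the dotted line and AKT1 left of the band, whereas in THP-1 GSK3B, GSK3A and AKT1 lie left of the band.

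PPP2CA, which encodes the more abundant catalytic subunit of protein phosphatase 2A, carried a U-937 peak of middling rank. It lies on chromosome 5 at 134194332 to 134226073 on the minus strand. The peak at 134226194 to 134226449 had a fold of 5.78 and a -log10 q of 4.30, ranks 1292 and 1300 of 2272. Its summit was 226 bp before the PPP2CA start and 111 bp before the start of the divergent lncRNA gene PPP2CA-DT, and the starts of these genes are 337 bp apart. The microRNA gene MIR3661, inside the PPP2CA span, had its nearer end 447 bp from the summit. A further U-937 peak of fold 6.50 lay 17.2 kb beyond the PPP2CA end, at SKP1. In THP-1 the nearest peak was 15.4 Mb away, and 88.9% of protein-coding genes had a nearer one or one as near.

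The PHLPP phosphatases, which remove the phosphate that mTORC2 places on AKT, differed in U-937 in the distance to the nearest peak. PHLPP1 lies on chromosome 18 at 62715541 to 62980433 on the plus strand. Its U-937 peak at 62714958 to 62715170 had a fold of 5.69 and a -log10 q of 4.07, ranks 1351 and 1341 of 2272, with the summit 436 bp before the start. PHLPP2 lies on chromosome 16 at 71644924 to 71724701 on the minus strand. The nearest U-937 peak was 369 kb away at DHX38, with a fold of 4.95, a value that 29 peaks of the list shared. Of all protein-coding genes 61.7% had a U-937 peak at least as near as PHLPP2 did. In THP-1 the nearest peaks were 4.79 Mb from PHLPP1 and 13.7 Mb from PHLPP2.

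In U-937 the boundary peaks of the 7 genes ran from rank 231 by fold at AKT2 to rank 1603 at GSK3A. Their median fold was 5.78, against 6.16 over all 2272 peaks and 6.59 over the 1110 peaks within 1000 bp of a protein-coding gene's end. AKT2 and GSK3B lay above the list's median fold, and PPP2CA, PHLPP1 and GSK3A lay below it. Widths ran from 194 bp at GSK3A to 591 bp at GSK3B, with a median of 256 bp, against 238 bp for the whole list. At a -log10 q of at least 5, peaks remained at AKT2 and GSK3B, 2 of the 7 genes, against 3.93% of all protein-coding genes, and in THP-1 none remained at the 7 genes, against 0.151%.

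**Figure D3:**
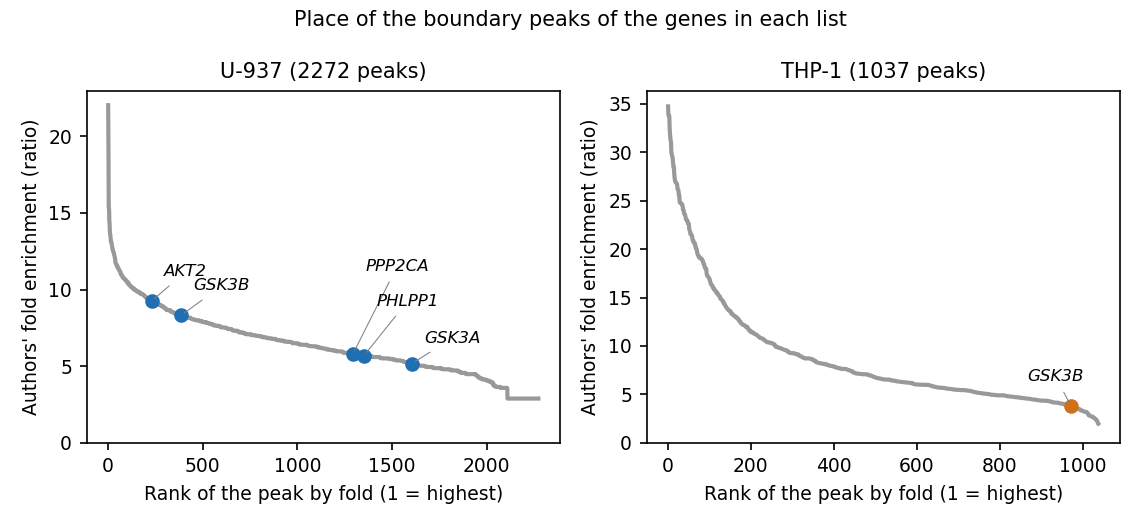
The authors' fold enrichment (ratio) of every peak in U-937 (left) and THP-1 (right), ordered by rank, with the boundary peaks of the 7 genes as points. AKT2 and GSK3B stand at ranks 231 and 385 of 2272 in U-937, while GSK3B stands at rank 972 of 1037 in THP-1.

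All 5 U-937 peaks lay at the start of their gene, with the summit before it, and none at a gene's other end. This is where most of the list's peaks at genes lay. Among the 1202 boundary-peak genes whose strand is given in the promoter table, 95.6% had the peak at the start. Of the 1149 genes with a peak there, 811 (70.6%) had the summit before the start, and 56.8% had it 100 to 500 bp before, the range that holds all 5. Inside the gene spans there was little to describe. No summit of either list fell inside any of the 7, against 5.21% of protein-coding genes with a summit inside in U-937 and 0.951% in THP-1. The GSK3B peak was the only one that overlapped a span, against 6.49% of genes in U-937 and 0.956% in THP-1. Within 100 kb of the spans U-937 had 3 summits for GSK3A, 2 each for AKT1, AKT2 and PPP2CA, 1 each for GSK3B and PHLPP1, and 0 for PHLPP2. THP-1 had 1 each for AKT1, GSK3A and GSK3B, and 0 for the other genes. Over all protein-coding genes the median was 0 in both lines.

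In 6 of the 7 genes, AKT1 without a peak among them, the promoter had a CpG content above the median of all promoters. In the 300-base window, which runs from 250 bases before the start to 50 after it, the ratio of observed to expected CpG was 1.03 for PHLPP1, 1.00 for GSK3A, 0.971 for GSK3B, 0.961 for AKT1, 0.910 for PPP2CA and 0.780 for AKT2. PHLPP2 stood apart, with a ratio of 0.433 and a GC content of 39.7%. The AKT1 window, with no peak, had a GC content of 83.3%, above 99.0% of the promoters of protein-coding genes. Over all 15842 protein-coding genes in the promoter table the median CpG ratio was 0.761 and the median GC content 62.7%. The 1149 promoters with a U-937 peak at the start had a median CpG ratio of 0.854, against 0.750 in the other 14693. The part of base composition in where peaks were found was not tested.

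**Figure D4:**
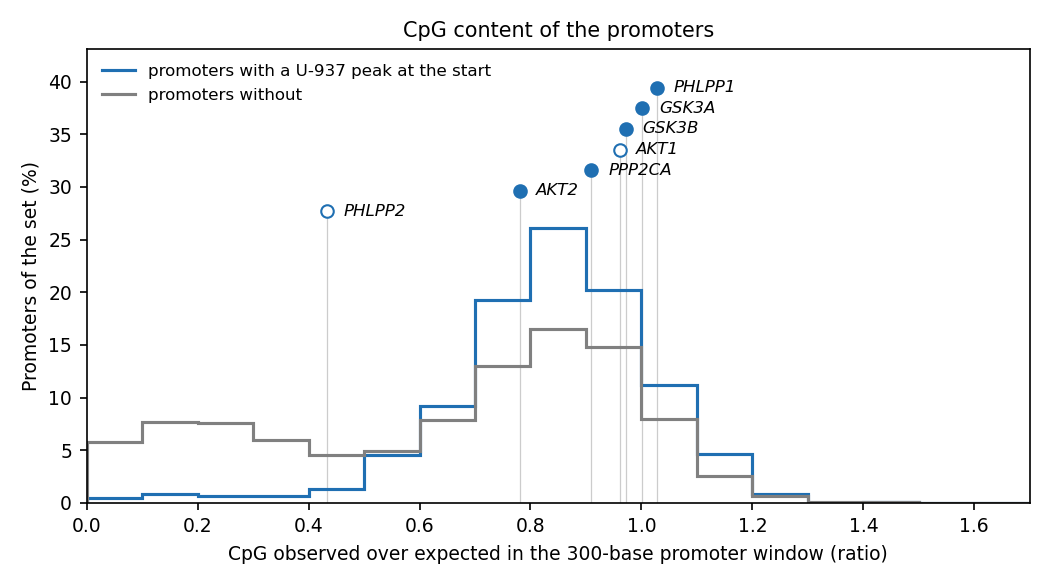
Ratio of observed to expected CpG in the 300-base promoter window, as the percentage of promoters with (blue line) and without (grey line) a U-937 peak at the start, with the 7 genes as points set above at arbitrary heights, filled where the gene had a U-937 peak. AKT1 (0.961, no peak) stands among the genes with a peak, and PHLPP2 (0.433, no peak) stands below them.

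The forkhead core TGTTTAC, the sequence FOXO factors are known to bind, was searched on both strands (reverse complement GTAAACA) in these windows. It was in 0 of the 7, in 3.42% of all 35116 promoters of the table and in 2.67% of the protein-coding ones. The shorter core TGTTTA, contained in the longer one, was also in 0 of the 7, against 12.3% of all promoters and 9.02% of protein-coding ones. A relaxed core, TGTTTNC, which also includes the first core and was added after the sequences were seen, matched at GSK3B and PHLPP2, against 18.0% of all promoters and 14.7% of protein-coding ones. The match at GSK3B, GCAAACA, began 219 bases before the start, inside the U-937 peak, and that at PHLPP2 lay past its start, where no peak was found. Of the 1149 promoters with a U-937 peak at the start, 1.74% held TGTTTAC, against 2.74% of the other protein-coding promoters. These windows cover only part of the U-937 peaks at AKT2, GSK3A, GSK3B and PPP2CA. They cover none of the PHLPP1 peak, which ended 371 bp before the start, so that peak was not searched. The U-937 summits at GSK3B (426 bp before the start) and PHLPP1 (436 bp) also lie outside them. A match or its absence says nothing of binding.

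Other promoter motifs, chosen after the sequences were seen, were searched in the same way. The GC box GGGCGG was in 6 of the 7 windows, all but that of PHLPP2. It was in 45.0% of all promoters, 58.3% of protein-coding ones and 72.5% of those with a U-937 peak at the start. The CCAAT box, as GATTGG, was in those of GSK3B and PHLPP2, in 15.1% of all promoters, 18.1% of protein-coding ones and 31.1% of those with a U-937 peak at the start. At GSK3B it began 200 bases before the start, and the GSK3B-DT window held it at 169 and 128 bases before its own start, all 3 inside the U-937 peak shown above. The ETS core CCGGAAG was in 0 of the 7 windows, in 10.3% of all promoters, 14.2% of protein-coding ones and 19.4% of those with a U-937 peak at the start.

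Among the other 88 genes of the pathway, from receptors to the FOXO factors, 9 (10.2%) had a boundary peak in U-937, against 7.02% of all protein-coding genes. In THP-1, 0 of 88 did, against 0.221% of all protein-coding genes, a share so low that a count of 0 does not set these genes apart. The median fold of the 9 was 8.03, against 6.16 over all U-937 peaks and 6.59 over those within 1000 bp of a protein-coding gene's end. It includes the peaks counted for SHC1, GYS1 and CDK2, which lay nearer to another gene, and the difference was not tested. The median distance to the nearest peak was 186 kb in U-937 and 1895 kb in THP-1, against 226 kb in U-937 and 2387 kb in THP-1 for all protein-coding genes. For the 7 genes that median was 0.426 kb in U-937 and 979 kb in THP-1.

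By role, no growth factor receptor (7 genes), PI3K subunit (8), or lipid phosphatase or PI3K inhibitor (6) had a boundary peak in U-937. None of the AKT-activating kinases and their complex subunits (5) or the AKT-related kinases (4) had one either. With 7.02% of all protein-coding genes carrying one, roles of this size are too small for a count of 0, or of 1 or 2, to set a role apart. The strongest of the 9 was at PPP2R1A, the scaffold subunit that holds the PPP2CA product, with a fold of 13.0, rank 19 of 2272, and its summit 106 bp before the start. It was the only one of 13 other genes of protein phosphatase 2A with a boundary peak. The YWHA genes and SFN, which encode a family of adaptor proteins that includes those holding phosphorylated FOXO factors in the cytoplasm, had 2 of 7, YWHAG (fold 8.17) and YWHAQ (fold 6.21). YWHAZ lay just outside the window, with its summit at 1029 bp. The group of other AKT substrates and mTORC1 relay genes had 2 of 8, the mTORC1 component AKT1S1 (fold 8.03) and the apoptosis gene BAD (-log10 q 4.27).

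The remaining peaks of the pathway were at SHC1, a receptor adaptor (fold 6.15), TRIB1, a pseudokinase gene (fold 5.95), GYS1, the muscle glycogen synthase that GSK3 phosphorylates (fold 8.20), and CDK2, a cell cycle kinase that can phosphorylate FOXO factors (fold 8.37). The peaks counted for SHC1, GYS1 and CDK2 were nearer to another protein-coding gene, CKS1B, RUVBL2 and RAB5B in that order. CDK2, at 956 bp, was just inside the window. At BAD the U-937 summit was 341 bp from the gene's end, and the nearest THP-1 summit, at 1122 bp, was just outside the window. That THP-1 summit was nearer to GPR137, at 419 bp, a gene with a boundary peak in both lines.

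**Figure D5:**
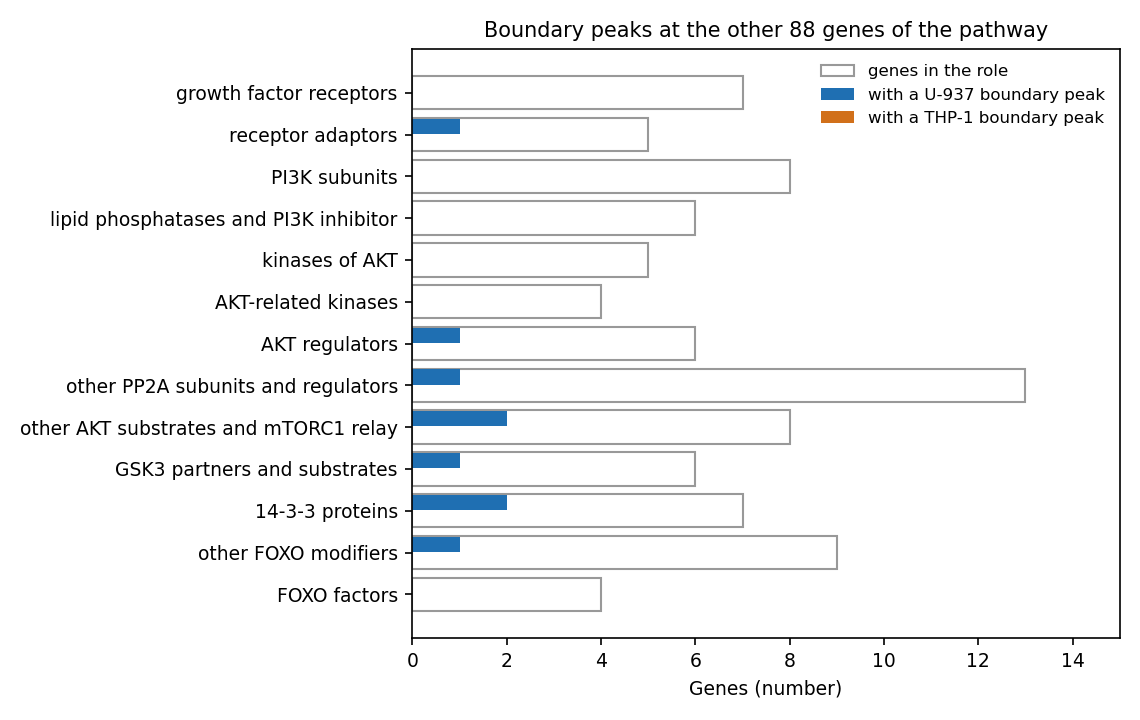
Number of genes in each role of the pathway list (open bars) and number with a boundary peak in U-937 (blue) and THP-1 (orange, 0 in every role). Peaks in U-937 lie at 9 of the 88 genes, in 7 of the 13 roles, against 7.02% of all protein-coding genes; the roles are too small to be set apart by these counts.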

How the data were processed

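FOXO3A CUT&Tag was deposited as 1 peak list per library. Bowtie2, Picard and build hg38 are named, per the submitters' processing notes, without roles. How peaks were called, and against which background, is not given in the sources used here. The authors deposited an integer score, a fold enrichment (a ratio) and -log10 values of p and q (p-value and q-value) for each peak, as read from the narrowPeak layout, since the lists have no header.

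Only peaks on chromosomes (the autosomes, X and Y) entered, with coordinates counted from 1 and ties given the better rank. Genes came from RefSeq GRCh38.p14. Of 59792 genes 58961 were used, without those outside these chromosomes and those that broke the order of their chromosome. Promoter sequences and strands came from the RefSeq promoter table, where all 7 genes and 15842 protein-coding genes had an entry. Analysis used Python 3.11.15, pandas 2.3.3 and numpy 2.4.6, and distances were checked on simulated data. Nothing was tested for significance.

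The genes described and the pathway list were chosen with earlier results of these data known. Named were the 7 genes, pathway genes with a boundary peak, genes with an end within 1000 bp of a boundary peak of the 7, and the 3 genes closest to GSK3B in rank; other genes were named after their values were seen. Alternatives covered the window, the q minimum, the peak edge, the gene start, the ranking, the motif and the libraries left out.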

Additional observations from a re-analysis of the deposited data

Results flagged for a closer look

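In THP-1, 245 of 1282 peaks lay on contigs outside the chromosomes. No value given for the 7 genes uses them, and no control library was used here.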

How the results depend on the processing

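Of the 7 genes, 5 kept a U-937 boundary peak with windows of 500 or 3000 bp, with distance taken from the peak edge, and at the gene start only. The shares of all protein-coding genes were 6.23% at 500 bp, 8.22% at 3000 bp and 7.17% from the peak edge. At the gene start the share was 7.25% of those of known strand. With a -log10 q of at least 5, 2 of the 7 genes and 5 of the 88 other pathway genes kept a U-937 boundary peak. The share of all protein-coding genes was then 3.93%. Only 5 pathway genes counted at the gene start, which was known for 73 of the 88. In THP-1 the peak at GSK3B was lost with a 500 bp window (0 genes) and at the q minimum (0 genes), and 1 pathway gene was counted within 3000 bp. The THP-1 shares of all protein-coding genes were 0.131% at 500 bp, 0.151% at the q minimum and 0.498% at 3000 bp. The median distance of the 7 genes was 0.18 kb in U-937 from the peak edge, and at the q minimum 17.2 kb in U-937 and 4936 kb in THP-1. The relaxed forkhead core was in 28.6% of the 7 promoters, against 0% for the core. Of all protein-coding promoters 14.7% held the relaxed core and 2.67% the core. The stricter q minimum leaves fewer peaks by construction.

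Leaving out each replicate in turn gave 0 to 5 of the 7 genes and 0 to 9 pathway genes in U-937, and 0 to 1 of the 7 genes and 0 pathway genes in THP-1, since all peaks came from replicate 1. No paired analysis was possible because the lines share only 1 replicate number that holds peaks and no value comes from a test. Of 34 alternatives for single genes, 23 stayed within 1.5 times their value. Read depth is unknown, so a missing peak does not show that FOXO3A is absent.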
